A study of Mus musculus with 2 samples.

Results

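The let-7 family was followed in the mouse tongue primordium at embryonic day E11.5 and at E10.5. The family was taken as 9 mature miRNAs, named on the array mmu-let-7a, mmu-let-7b, mmu-let-7c, mmu-let-7d, mmu-let-7e, mmu-let-7f, mmu-let-7g, mmu-let-7i and mmu-miR-98 and written below without the prefix. They were chosen by name among the 1080 miRNAs of the array, with all 18 of their probes among 2780. The tissue came from the middle of the mandibular arch in embryos of ICR, an outbred strain, with no treatment or genetic change named in the labels. RNA of 40 embryos was pooled at E11.5 and of 40 at E10.5, and each pool was hybridised to 1 Cy3 array, both on the same slide. There were thus no replicates and no difference was tested. Each value describes these 2 pools, and errors over the repeated spots of a probe hold spot noise within an array only.

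let-7 was found in Caenorhabditis elegans as a gene that times the passage from larval to adult cell fates. In mammals the family silences mRNAs of growth and progenitor genes, among them those of Ras proteins, Hmga2 and Lin28a. The proteins LIN28A and LIN28B in turn bind let-7 precursors and block their maturation in early embryonic cells, so mature let-7 is known to build up as tissues differentiate. The array read miRNAs only, and neither the LIN28 proteins nor let-7 target mRNAs were measured here.

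The mature sequences show what the members share and where they differ, which bears on what each probe can read. They are given 5′ to 3′ as in RefSeq on GRCm38.p6, with the seed, bases 2 to 8 that pair with a target mRNA, in capitals. All 9 members matched a RefSeq entry.
let-7a: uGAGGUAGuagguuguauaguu
let-7b: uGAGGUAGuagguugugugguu
let-7c: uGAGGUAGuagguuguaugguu
let-7d: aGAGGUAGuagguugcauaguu
let-7e: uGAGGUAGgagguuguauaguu
let-7f: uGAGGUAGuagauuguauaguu
let-7g: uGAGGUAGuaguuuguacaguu
let-7i: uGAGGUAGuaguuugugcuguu
miR-98: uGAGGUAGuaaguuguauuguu
All 9 have 22 bases and the same 7-base seed. Counted from 1 at the 5′ end and with the let-7a base first, let-7c differed from let-7a at A19G, let-7e at U9G and let-7f at G12A. let-7b differed at A17G and A19G, let-7d at U1A and U16C, let-7g at G12U and U18C, and miR-98 at G11A and A19U. let-7i was the farthest from let-7a, with G12U, A17G, U18C and A19U.

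The members come from separate loci, some of them clusters shared with other miRNAs. let-7a (chr13:48538239-48538260, minus strand), let-7f (chr13:48537889-48537910, minus strand) and let-7d (chr13:48536078-48536099, minus strand) lie together on chromosome 13, in no gene span of the gene table used. The second let-7f locus (chrX:151912353-151912374, plus strand) lies beside miR-98 (chrX:151913229-151913250, plus strand), both within the span of Huwe1, a ubiquitin ligase gene. One let-7c locus (chr15:85706616-85706637, plus strand) lies beside let-7b (chr15:85707325-85707346, plus strand) within the noncoding gene Lncppara, and the other (chr16:77599672-77599693, plus strand) beside miR-99a. let-7e (chr17:17830366-17830387, plus strand) lies between miR-99b and miR-125a within the span of Spaca6. let-7g (chr9:106178846-106178867, plus strand) lies within the span of Wdr82, and let-7i (chr10:122985698-122985719, minus strand) in no gene span. A second let-7a gene, Mirlet7a-2, lies with Mir100 and Mir125b-1 within the noncoding gene Mir100hg on chromosome 9. The array reads the mature form, so the loci of let-7a, let-7c and let-7f cannot be told apart in it.

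Each member was read by 2 nested probes of 18 to 22 bases, all 18 of them pairing without a mismatch to the 3′ end of their miRNA, up to base 22. The 5 members with a 19-base probe, which pairs with bases 4 to 22, show how little separates them. Capitals mark bases that differ from the let-7a probe.
let-7a probe: aactatacaacctactacc
let-7b probe: aacCaCacaacctactacc
let-7c probe: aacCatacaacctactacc
let-7d probe: aactatGcaacctactacc
let-7e probe: aactatacaacctCctacc
The probes of 6 members were within 1 mismatch of another member. let-7a was within 1 of let-7c, let-7d, let-7e and let-7f, and let-7b was within 1 of let-7c. For let-7g, let-7i and miR-98 the nearest other member had 2 mismatches. How far a probe reads a near relative was not tested, and the differences below carry that limit.

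The scanning software marks spots well above background, and a probe was taken as detected when 50% or more of its spots had that mark. On this rule all 9 members were detected at E11.5, through all 18 probes, and 6 members at E10.5, through 8 probes. Of all 1080 miRNAs, the rule passed 199 (18.4%) at E11.5, against 144 (13.3%) at E10.5. The 3 detected at E11.5 only were let-7b, let-7i and miR-98. Detection at E11.5 only was seen for 5.74% of all 1080 miRNAs, and for 6.62% of the 936 not detected at E10.5. The E11.5 array was brighter as a whole. The 218 probes detected at both stages were a median of 2.30-fold brighter there before scaling. To scale, the 75th percentile over those probes, 482 at E11.5 and 194 at E10.5, was set equal between arrays. This took 1.31 off every log2 difference. Unless called unscaled, a difference below is the scaled log2 value at E11.5 less that at E10.5, and so is relative to the detected miRNAs as a whole. In pooled tissue, fewer cells that make a miRNA and less of it per cell cannot be told apart.

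let-7a was measured on both arrays by both of its probes. Its 20-base probe read an intensity of 1693 at E11.5, with an SD of 57.3 over 19 spots, against 192 ± 13.4 (19 spots) at E10.5. Its 19-base probe had 886 ± 36.8 (16 spots) at E11.5, against 101 ± 6.72 (20 spots) at E10.5. Each probe was brighter at E11.5, and the stages did not overlap in any spot, unscaled or scaled. Of the 218 probes detected on both arrays, 80.7% were apart in this way unscaled and 19.3% scaled. The spot statements below on let-7c, let-7d, let-7e, let-7f, let-7g and let-7i also hold both unscaled and scaled. Both probes gave nearly the same difference, 1.83 and 1.82, and their mean was 1.82 ± 0.018 (SE over spots), a scaled fold of 3.54. Before scaling the fold was 8.81.

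let-7f, which differs from let-7a by 1 base near the middle, had a difference of similar size. Its 21-base probe had 1345 ± 54.0 (18 spots) at E11.5, against 149 ± 10.99 (18 spots) at E10.5. The difference was 1.86 ± 0.029, or 3.64-fold. Its 20-base probe had 246 ± 23.6 (20 spots) at E11.5, against 24.9 ± 7.26 (20 spots) at E10.5, where 25% of spots were well above background. That probe was left out of the difference because it was not detected at E10.5, and it too was brighter at E11.5 in every spot.

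let-7c and let-7g were measured by 1 probe each. The 19-base probe of let-7c had 589 ± 19.1 (18 spots) at E11.5, against 62.3 ± 5.53 (19 spots) at E10.5, a difference of 1.93 ± 0.031. The 21-base probe of let-7g had 518 ± 16.2 (18 spots) at E11.5, against 55.9 ± 7.51 (20 spots) at E10.5, a difference of 1.90 ± 0.045. For both members, no E11.5 spot was as dim as the brightest E10.5 spot. Their other probes were detected at E11.5 only, with 264 ± 19.6 (20 spots) at E11.5 against 29.1 ± 5.64 (20 spots) at E10.5 for let-7c, and 228 ± 21.8 (20 spots) against 22.9 ± 6.96 (19 spots) for let-7g. With normexp, a background correction with an offset of 50 that draws dim values together, the difference was 1.23 for let-7c and 1.14 for let-7g.

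let-7d had the largest difference of all miRNAs detected on both arrays, 2.70 ± 0.044, or 6.49-fold, and it rested on a dim E10.5 value. Its 19-base probe had 517 ± 25.7 (20 spots) at E11.5, against 32.0 ± 3.88 (18 spots) at E10.5, where the dimmest detected probe of that array had 30.9. It was just inside the detection rule, with 9 of 18 spots well above background. Its 18-base probe had 222 ± 7.78 (14 spots) at E11.5, against 14.2 ± 4.50 (19 spots) at E10.5, where 0 spots were well above background. Both probes were brighter at E11.5 in every spot. With normexp the let-7d difference was 1.45, below those of let-7f (1.63) and let-7a (1.55). With detection by every spot it had no difference, since the probe no longer counted as detected at E10.5.

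let-7e differed least among the 6 measured members. Its 19-base probe had 2033 ± 51.4 (15 spots) at E11.5, against 438 ± 10.67 (16 spots) at E10.5. Its 18-base probe had 1169 ± 28.3 (19 spots) at E11.5, against 271 ± 13.1 (19 spots) at E10.5. Both probes were brighter at E11.5 in every spot, yet by less than those of the other members. Their differences were 0.90 and 0.79, with a mean of 0.85 ± 0.011, or 1.80-fold scaled and 4.47-fold unscaled. let-7e lay 1.05 below the median of the other 5 measured members, while the 4 of let-7a, let-7c, let-7f and let-7g lay within 1.82 to 1.93. Relative to their median it lay at -0.56 with normexp and down to -1.09 among 15 processing alternatives. In all 15 it was below each other member measured above the floor. Scalings that take 1 constant off every difference could not change its place. Only alternatives that do more than that, such as normexp, could have moved it.

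let-7i was just outside the detection rule at E10.5. Its 21-base probe had 566 ± 10.3 (16 spots) at E11.5, against 32.5 ± 7.98 (19 spots) at E10.5, where 9 of 19 spots were well above background. Its 20-base probe had 422 ± 12.8 (17 spots) at E11.5, against 22.4 ± 8.33 (20 spots) at E10.5. Both were far brighter at E11.5, with no overlap of spots. Its E10.5 value is only an upper limit, so the fold was taken against the dimmest detected probe of that array, or the probe's own value where higher, and is a lower bound. By this rule E11.5 exceeded E10.5 by at least 6.20-fold for let-7i, and at least 2.61-fold with normexp. With the scanner's own gene detection flag, which calls let-7i detected at both stages, its difference was 2.92.

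let-7b and miR-98 were dim at E11.5 and at the level of the negative controls at E10.5. The 19-base probe of let-7b had 67.2 ± 7.75 (20 spots) at E11.5, against 6.97 ± 4.51 (20 spots) at E10.5. Its 18-base probe had 31.0 ± 5.53 (19 spots) at E11.5, against 2.54 ± 6.49 (20 spots) at E10.5. Negative controls had 5.88 ± 5.60 (SD over 1000 spots) at E11.5, against 7.87 ± 6.16 (1000 spots) at E10.5, so no let-7b signal was told from them at E10.5. The 22-base probe of miR-98 had 51.9 ± 6.24 (20 spots) at E11.5, against 9.18 ± 5.57 (19 spots) at E10.5. Its 21-base probe had 37.4 ± 7.03 (20 spots) against 5.17 ± 7.25 (20 spots). Unscaled, the spots of the stages did not overlap for these 4 probes, but after scaling neither miRNA had a lower bound above 1-fold. Without scaling the bounds were 1.48-fold for let-7b and 1.43-fold for miR-98.

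**Figure D1:**
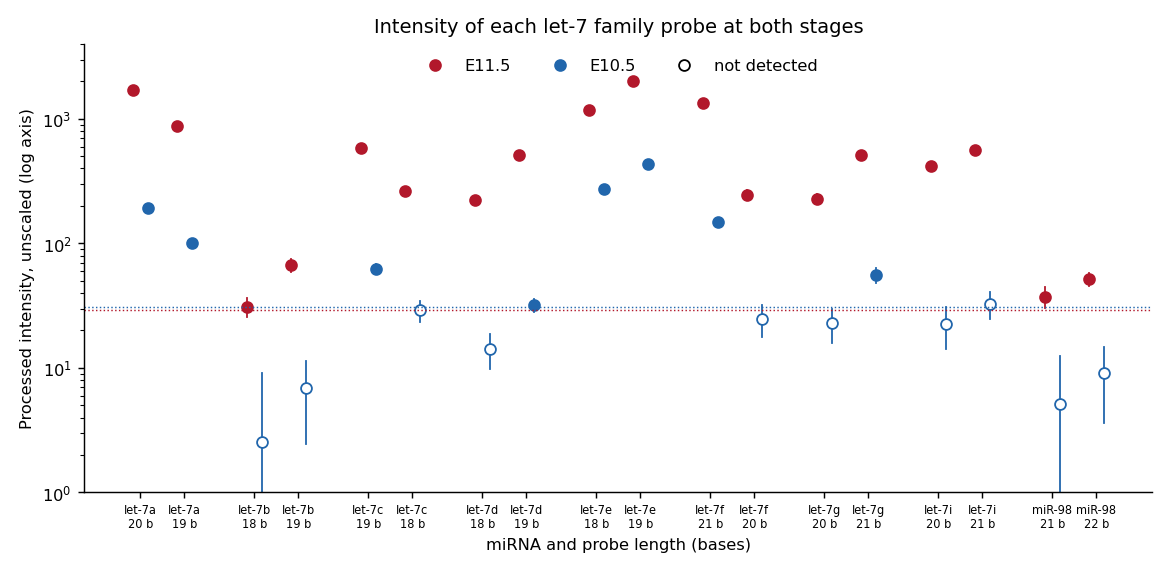
Mean unscaled intensity of the 18 let-7 family probes on a log axis, in red at E11.5 and in blue at E10.5. Bars are the SD over spots and are cut at the lower edge of the axis, open circles mark probes not detected by the 50% rule, and dotted lines mark the dimmest detected probe of each array. The E11.5 point lies above the E10.5 point for every probe, and the gap is smallest for let-7e.

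Across the members the spots of the 2 stages were apart. Unscaled, the dimmest E11.5 spot was brighter than the brightest E10.5 spot for 18 of 18 probes, and after scaling for 15 of 18. The exceptions after scaling were both miR-98 probes and the 18-base let-7b probe. Among the member probes detected on both arrays the count was 8 of 8 in either case. Of all 218 probes detected on both arrays, 80.7% were apart unscaled and 19.3% scaled. Only the 8 of 8 can be set against these shares, and it is the scaled count that stands off from them. For all 18 member probes, some of them detected at E11.5 only, no share over all probes was computed. Spots of one array share its RNA and are no replicates of a stage.

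The 6 measured members took ranks 1 to 6 among the 137 miRNAs with a difference, in the order let-7d, let-7c, let-7g, let-7f, let-7a and let-7e. From let-7c to let-7a, neighbours in this order differed by about as much as their SEs over spots, while let-7d and let-7e lay farther off. These SEs hold spot noise only, and with normexp let-7d (1.45) lay below let-7f (1.63) and let-7a (1.55). All 6 were higher at E11.5, where 47.4% of all 137 were, and 5 were at least 2-fold higher, where 3.65% of all were, and those were the same 5. The members' median was 1.88 with an SD of 0.59 between members, against a median of -0.07 over all 137 and -0.11 over the 131 others. The others ran from -1.59 to 0.81. The gap between let-7e and the highest of them, miR-99a, was only 0.03.

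**Figure D2:**
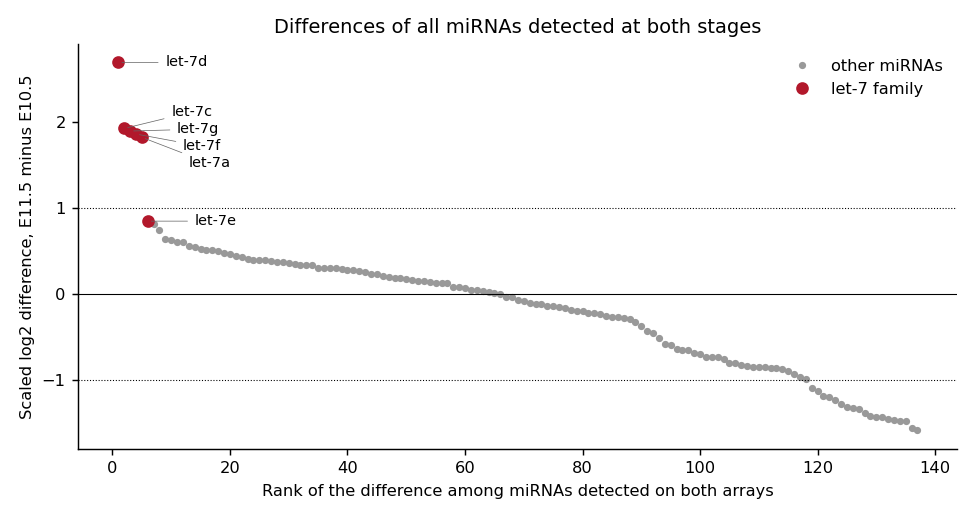
Scaled log2 difference, E11.5 minus E10.5, of the 137 miRNAs detected on both arrays, in order of rank, with the let-7 family in red and the others in grey. Dotted lines mark 2-fold. The 6 members hold ranks 1 to 6, with let-7e at 0.85 next to the highest other miRNA at 0.81.

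The size of these differences depended on the scaling, and part of their order on the processing. With quantile normalization let-7f (2.01) lay above let-7g (1.93) and let-7c (1.91). With no scaling the median over all 137 miRNAs was 1.24 and that of the members 3.19, and 88 miRNAs, 64.2%, were at least 2-fold higher. The distance of the family's median from the median of all miRNAs was 1.95 as reported and between 1.62 and 2.07 in the 15 alternatives. Every measured member was higher in 14 of the 15. The 15th set a floor in place of the detection rule, and there let-7b and miR-98 sat at the floor at both stages. No miRNA outside the family lay above let-7e in 11 of the 15. The other 4 were the total gene signal (1 above), the gene detection flag (4), the floor (1) and the authors' deposited value table (3). Not scaling, or scaling by all probes, control probes, the median or without member probes, changes only 1 constant taken off every difference. Those alternatives, all among the 11, could change neither this order nor the family's distance from the median of all miRNAs.

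**Figure D3:**
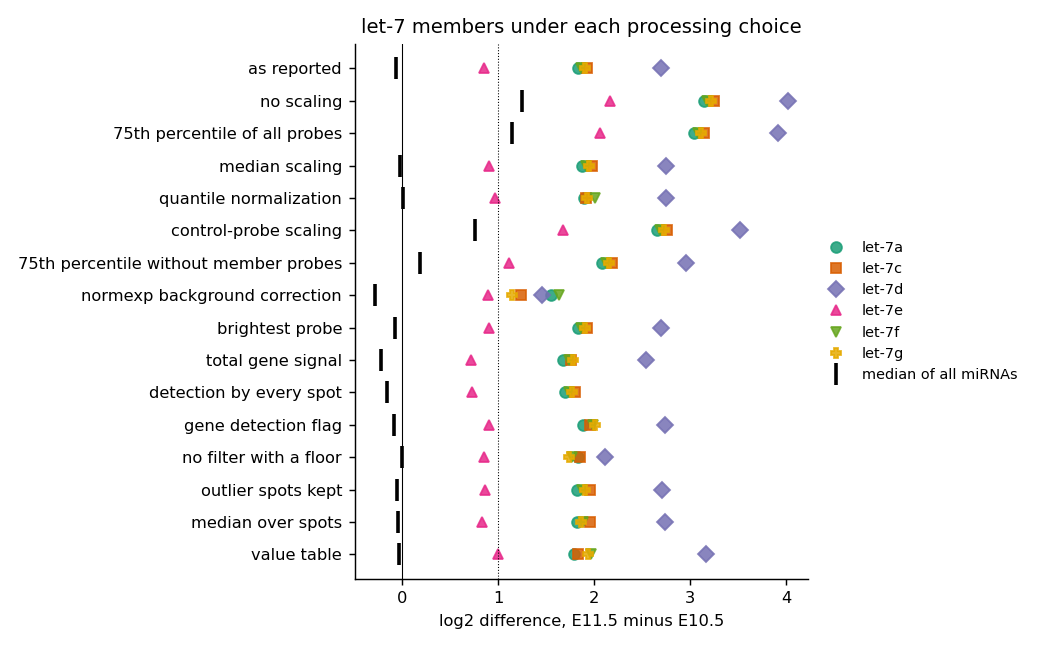
log2 difference, E11.5 minus E10.5, of the 6 measured members under each processing choice, with the median of all measured miRNAs as a black bar. The dotted line marks 2-fold. Each of the 6 lies right of the black bar, let-7e lies left of the other 5 throughout, and let-7d lies farthest right except with normexp, and is absent with detection by every spot.

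The miRNAs that share clusters with let-7 moved less than their let-7 partner. The list held miR-99a, miR-99b, miR-100, miR-125a-5p and miR-125b-5p, of which the miR-125 miRNAs are relatives of lin-4, another timing miRNA of Caenorhabditis elegans, together with their opposite arms. All 5 main arms were measured at both stages. miR-99a was at 0.81 ± 0.029, miR-100 at 0.40 ± 0.050 and miR-125b-5p at 0.34 ± 0.012. miR-125a-5p was at -0.11 ± 0.025 and miR-99b at -0.29 ± 0.021, and these 2 were above 0 unscaled, at 1.2 and 1.03, and also when all probes or control probes set the scale. With the percentile taken without member probes miR-125a-5p was at 0.15, while miR-100 was at -0.10 with normexp. Of the 5, 0 were 2-fold higher as scaled, where 3.65% of all 137 miRNAs were. Unscaled all 5 were, where 64.2% of all 137 were. When all probes set the scale, miR-99a (2.03), miR-100 (1.61), miR-125b-5p (1.55) and miR-125a-5p were past 2-fold, where 58.4% of all 137 were. When control probes set it, miR-99a (1.64), miR-100 (1.22) and miR-125b-5p (1.16) were, where 35.8% of all 137 were. miR-99b was below 2-fold in both. miR-99a alone was past 2-fold with the percentile without member probes (1.07) and in the authors' deposited value table (1.21). Of the 6 opposite arms, miR-99b* was detected at E11.5 only and the other 5 at neither stage.

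Set against the partner on the same cluster, each let-7 member was higher by 0.96 to 1.59. let-7e exceeded miR-99b by 1.13 and miR-125a-5p by 0.96, with both distances between 0.94 and 1.42 in every alternative. Scaling by a constant cannot change such distances. let-7c exceeded miR-99a by 1.11, and by 0.61 in the authors' deposited value table. let-7a exceeded miR-100 by 1.43 and miR-125b-5p by 1.49, and let-7c exceeded miR-125b-5p by 1.59. The last was 0.82 with normexp, and let-7a exceeded miR-125b-5p by 0.90 in the authors' deposited value table. On the chromosome 13 cluster, where all miRNAs are let-7 members, let-7d stood at 2.70 and let-7f and let-7a at 1.86 and 1.82. let-7a, let-7c and let-7f have a further locus each, and miR-125b-5p also has genes in both clusters, so these distances do not belong to single clusters.

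**Figure D4:**
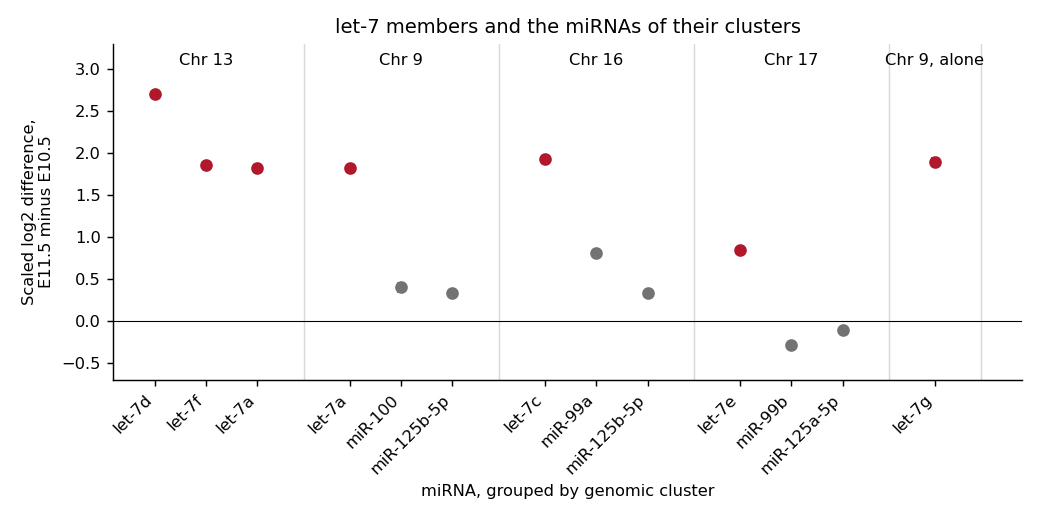
Scaled log2 difference, E11.5 minus E10.5, of measured let-7 members (red) and of the other miRNAs of their clusters (grey), with the SE over spots, which is smaller than the points. The clusters of let-7b and miR-98, which have no difference, are not drawn. In the clusters on chromosomes 9, 16 and 17 the let-7 member lies above its partners.

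The opposite arms of the let-7 precursors, the passenger strands that are usually degraded, were dim at both stages. The array held 11 of them with 41 probes, and 0 of the 11 passed the detection rule at either stage. For 9 of them the probe means ran from -4.93 to 13.5 at E11.5, against -6.10 to 6.94 at E10.5, near the negative controls. The remaining pair, let-7b* and let-7f-1*, stood somewhat higher at E10.5 only, with probe means of up to 22.7 and 23.3. At E11.5 the probe means of the pair, 9.19 to 14.2 and 11.4 to 14.5, overlapped those of the 9. At this signal over background a difference in the 9 could not be seen.

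Other miRNAs with the let-7 seed were looked for in RefSeq. Besides the 9 members, 2 of the 1679 mature names there carry it, let-7k and miR-1961, of which miR-1961 was on the array. Its sequence (chr5:92788465-92788481, minus strand) is shorter than those of the members. It follows let-7g and let-7i for some bases past the seed before it differs.
miR-1961: uGAGGUAGuaguuagaa
Its 17-base probe had -3.42 ± 3.63 (18 spots) at E11.5, against -3.58 ± 5.49 (20 spots) at E10.5. Neither of its probes was detected at either stage.

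By distance from the family's median, the 3 miRNAs outside it that came nearest over these 2 arrays were miR-99a, 1.07 below it, miR-23b, 1.14 below it at 0.74 ± 0.019, and miR-376a, 1.24 below it at 0.64 ± 0.033. None was 2-fold higher as scaled. Unscaled all 3 were, as were 64.2% of all 137 miRNAs, since scaling took 1.31 off every log2 difference. Further settings are given above for miR-99a only.

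Cell type markers were read on the same arrays. Mesenchymal miRNAs, as the labelled tissue would hold, were detected for 5 of 6 at E11.5 and 4 of 6 at E10.5, with a summed intensity of 13558 against 5063, and the 4 measured at both stages had scaled differences of -0.08 to 0.28. Muscle miRNAs were detected for 4 of 6 at E11.5 and 0 of 6 at E10.5, with sums of 459 against 16.9, and miR-208a-3p and miR-499 were detected at neither stage. Epithelial miRNAs were detected for 5 of 7 at E11.5 and 4 of 7 at E10.5. Their sums were 573 against 524, less than the rise of the array as a whole. The 4 measured at both stages had scaled differences of -1.59 to -0.85. Red cell miRNAs were detected for 1 of 2 at each stage (sums of 116 against 70.1), and endothelial ones for 1 of 2 at each (387 against 275). The detected ones had scaled differences of -0.60 (red cells) and -0.81 (endothelium). Leukocyte miRNAs were detected for 1 of 4 at E11.5 and 0 of 4 at E10.5 (38.1 against 33.8), as were neuronal ones (78.3 against 22.1), and the liver miRNA miR-122 was not detected at either stage. No muscle miRNA had a difference, since none was detected at E10.5. The mesenchymal, epithelial, leukocyte and neuronal lists each held 1 miRNA detected at E11.5 only, as were 5.74% of all 1080 miRNAs. The part of any cell type in the let-7 difference was not tested.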

How the data were processed

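Total RNA carried the Cy3 dye and each stage had its own Agilent array, read in 1 colour. The authors deposited an intensity for each spot, already spatially detrended and with background taken off, per the file headers. Those headers give Feature Extraction as 10.7.1.1, the array design as 031184 and the build as mm9. Version 9.5.1.1 is given by the submitters' processing notes. The deposited flags for outliers, detection and saturation are other columns of the same files. The value table was used as an alternative, and its normalization is not given in the sources used here.

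Outlier spots (of 360 member spots, 31 on the E11.5 array and 15 on the E10.5 array) were left out and the others averaged per probe. Of the miRNA spots, 0 were saturated. Arrays were scaled to their 75th percentile over probes detected on both. The difference of a miRNA averages those of its probes detected at both stages. Precision is limited by there being 1 array per stage.

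The members, lists and alternatives were chosen with earlier results of these data known. The text names every member, its passenger strands and cluster partners, seed relatives and the 3 nearest other miRNAs. miR-208a-3p, miR-499 and miR-122 were named after their values were seen. The steps were tested on simulated data. Positions and sequences are RefSeq's on GRCm38.p6, and mm9 positions were not used. Python 3.11.15 was used with pandas 2.3.3 and numpy 2.4.6, plots came from matplotlib 3.10.9, and normexp from limma 3.58.1 in R 4.3.3.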

Additional observations from a re-analysis of the deposited data

How the results depend on the processing

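The family's median difference of 1.88 was 3.19 unscaled, 3.10 when all probes set the 75th percentile, and 2.70 when control probes set the scale. It lay between 1.34 (normexp) and 2.14 in the other 12 of 15 alternatives. miRNAs at least 2-fold higher at E11.5 numbered 5 as reported. Under those scalings they numbered 88, 80 and 49, in the same order. Leaving member probes out of the percentile gave 8, and 9 were found both in the value table and by the gene detection flag. Those at least 2-fold lower numbered 19 as reported, 0 under each of these 3 scalings, and 10 with no filter and a floor. They numbered 28 in the value table, and 26 both by total gene signal and by the gene detection flag. With normexp, and with member probes left out of the percentile, they numbered 14. The shifts under these 3 scalings, and with member probes left out of the percentile, come from 1 constant taken off every difference. The cause of the other shifts was not tested. let-7e was at least 2-fold higher in 4 of 15 alternatives, the 3 scalings named first and the percentile without member probes. The other 5 measured members were at least 2-fold higher wherever they had a value. Without let-7d, an alternative chosen after seeing the data, the median was 1.89 over 5 members. No paired analysis was possible because each stage has 1 array. Signal over background limits let-7b, let-7i, miR-98, both probes of let-7d and 1 probe each of let-7c, let-7f and let-7g at E10.5.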

Other observations

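A pair of passenger strands stood above the other 9 at E10.5 and were dimmer at E11.5. The 4 probes of let-7b* had means from 9.19 to 14.2 at E11.5, against 19.9 to 22.7 at E10.5, and those of let-7f-1* from 11.4 to 14.5 at E11.5, against 22.3 to 23.3 at E10.5. By the 50% rule neither was detected, but the scanner's gene detection flag called both detected at E10.5 and not at E11.5. Their guide strands went the other way, with let-7f higher and let-7b detected at E11.5 only. The negative controls went the same way, at 5.88 at E11.5 against 7.87 at E10.5. Their part in this was not tested.

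miR-202-3p carries a seed that differs from that of let-7 at G8U, counted from 1 at its 5′ end. Its 15-base probe had 24.4 ± 3.87 (SD over 19 spots) at E11.5, against 14.9 ± 5.39 (18 spots) at E10.5, and its 14-base probe 19.7 ± 3.77 (18 spots) against 12.6 ± 6.16 (20 spots). It was not detected at either stage.

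In the authors' deposited value table, each of the 188 values above its lowest value of 0.1 at E10.5 also occurs at E11.5, to 4 decimals. let-7f at E11.5 and let-7e at E10.5 hold the same value there, 325. In that table let-7i had 191 at E11.5 and 26.3 at E10.5, a log2 difference of 2.87, and let-7e one of 0.9965, just under 2-fold. The table's median is 0.1 at E11.5 and 0.1 at E10.5, and its scale is linear.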
